A study of Mus musculus with 18 samples.

Results

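The genes of CTCF and of the cohesin complex were examined for CTCF binding in mouse embryonic stem cells of 3 genotypes. TKO cells lack Tet1, Tet2 and Tet3. SKO cells lack these 3 genes and also Dnmt1, Dnmt3a and Dnmt3b, and WT cells carry all 6. Binding was measured by chromatin immunoprecipitation with an antibody to CTCF followed by sequencing (ChIP-seq), in 18 samples: each genotype had 3 immunoprecipitated and 3 input libraries, which makes 6 groups. Per the labels' protocols the cells grew with LIF in serum replacement on gelatin and irradiated mouse embryonic fibroblasts. The labels do not say whether a genotype is 1 clone or whether the replicates are separate cultures, and other differences between the lines cannot be told apart from those due to the missing enzymes. Peak positions carry no expression values, so the stem cell identity of the cultures was not checked here.

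The 10 genes were Ctcf, Rad21, Smc1a, Smc3, Stag1, Stag2, Nipbl, Mau2, Wapl and Pds5a. A CTCF peak belonged to a gene when any of its summits lay inside the gene or within 10 kb of it on mm10. No measured level entered this rule beyond the authors' calling of the peaks. The genes themselves were chosen with earlier results of these data known. The rule took 38 of 62238 TKO peaks, 34 of 59372 SKO peaks and 47 of 71075 WT peaks. Overlapping peaks of the lists merged into 50 regions, out of 78072 in the genome. Close to the 10 kb limit, a WT peak 9.95 kb from Stag2 (fold enrichment 4.49) was counted and a WT peak 10.4 kb from Smc3 (fold 4.98) was not.

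CTCF is a zinc finger protein that binds a long, directional DNA motif. Cohesin is a ring of Smc1a, Smc3 and Rad21 with either Stag1 or Stag2; the Nipbl and Mau2 proteins load it onto chromatin, it extrudes DNA loops until it meets CTCF, and Wapl with Pds5 proteins releases it. CpG methylation within the motif can hinder CTCF at some sites. DNMT enzymes place this mark and TET enzymes oxidise it.

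RefSeq promoter sequences (GRCm38.p6) were on hand for 7 of the 10 genes, in 8 windows from 250 bases before to 50 bases after a gene start. A summit of any list fell in 0 of the 8 windows. The 3 sequences below are the 250 bases before the start of Smc3, whose strongest peak runs into this stretch, and of Ctcf and Pds5a, which hold similar motif letters and no peak. Smc3, Ctcf and Pds5a were picked after the values were seen. Capitals mark every match, on either strand, to a shortened and loosened form of the CTCF core motif, spelled CC, 4 open bases, G, 2 open bases and GGC. Matches on opposite strands that overlap appear as 1 run. Each sequence is on the strand of its gene, plus for Smc3 and Ctcf and minus for Pds5a.
Smc3 chr19:53600146-53600395: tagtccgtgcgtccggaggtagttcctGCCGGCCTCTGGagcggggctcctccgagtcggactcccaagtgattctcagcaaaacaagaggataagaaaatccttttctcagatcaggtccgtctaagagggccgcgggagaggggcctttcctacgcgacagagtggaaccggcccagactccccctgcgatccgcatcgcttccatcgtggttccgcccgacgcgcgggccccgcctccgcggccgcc
Ctcf chr8:105636288-105636537: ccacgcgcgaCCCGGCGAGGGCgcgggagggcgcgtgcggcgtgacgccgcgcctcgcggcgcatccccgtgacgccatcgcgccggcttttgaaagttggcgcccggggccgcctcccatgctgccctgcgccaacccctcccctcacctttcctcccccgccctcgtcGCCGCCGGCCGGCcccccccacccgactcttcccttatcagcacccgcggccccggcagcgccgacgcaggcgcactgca
Pds5a chr5:65698237-65698486: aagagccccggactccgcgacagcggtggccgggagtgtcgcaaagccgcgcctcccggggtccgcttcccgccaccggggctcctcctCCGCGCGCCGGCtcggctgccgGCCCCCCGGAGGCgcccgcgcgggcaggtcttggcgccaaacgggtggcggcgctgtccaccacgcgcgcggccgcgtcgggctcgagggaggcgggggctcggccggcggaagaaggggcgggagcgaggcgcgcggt
The loose motif occurred in 21.4% of 32851 tabulated promoters of this length. A stricter form, with 3 open bases and then AG in place of 4 and G, occurred in 7.17% of them and in 0 of the 8 stretches of 250 bases before the starts of these genes. The Smc3 match, at base 28 of the stretch, lay inside the TKO peak, which covered the first 175 bases, and inside the WT peak, which covered the first 94. The SKO peak ended before the stretch. All 3 summits lay outside the stretch, 471 bases before the gene start in TKO, 470 in SKO and 469 in WT. The lists thus differed here only in where the called peak ended, and the match was not at a summit. The Ctcf stretch has 40 CpG dinucleotides and the Pds5a stretch 44, and no list had a peak over either. The Smc3 stretch has 26. The stretches of Stag1 (31), Wapl (32), Smc1a (16) and Mau2 (18 and 1) also had no peak over them. A match describes letters only and is not a binding site.

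Most CTCF binding at these genes was present in all 3 genotypes. Of the 50 regions, 31 (62%) had a peak in every list, against 66.3% of all regions. A further 10 regions (20%) had a WT peak alone, against 12.7% in the genome, and 4 (8%) a TKO peak alone, against 4.30%. The remaining 5 had TKO and WT peaks (3) or SKO and WT peaks (2). In the 31 regions common to all lists the summits lay within a median of 23 bp of each other, and at most 67 bp apart. The peaks were weaker than usual by fold enrichment, the authors' ratio of ChIP signal to local background at the summit, with a constant added to both. Their median fold was 8.02 in TKO, 7.72 in SKO and 6.53 in WT, against 9.84, 10.5 and 10.0 over all peaks of the same lists.

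**Figure D1:**
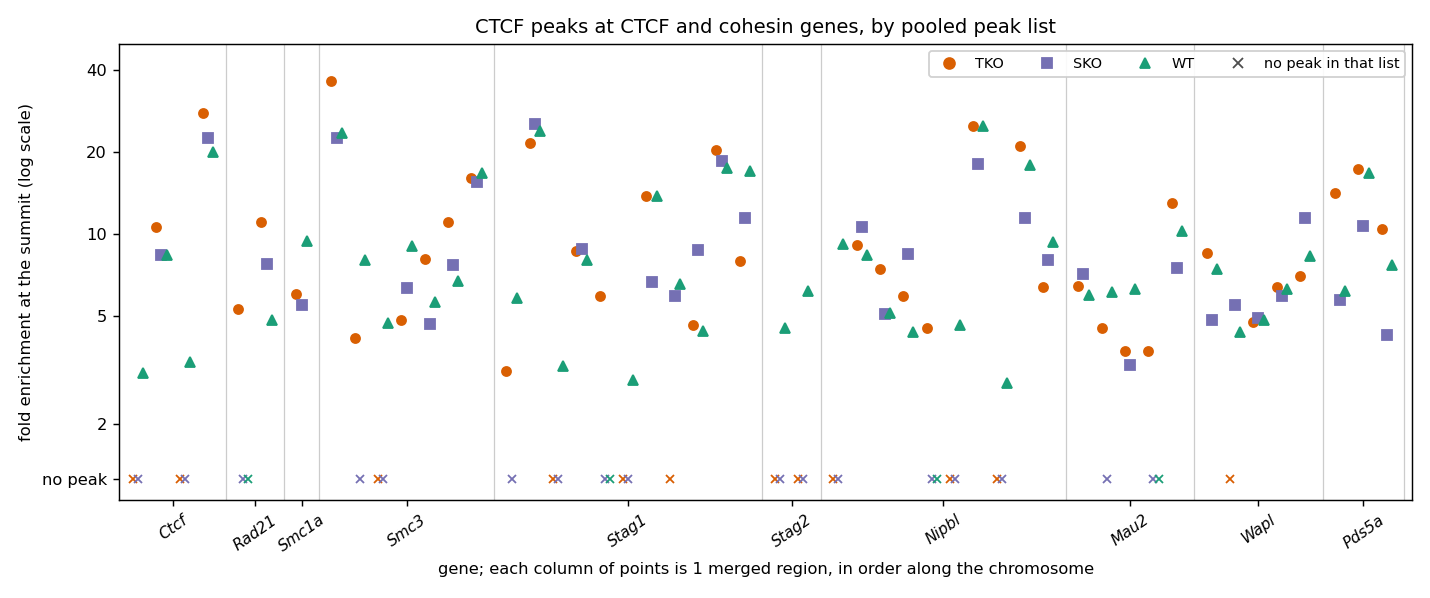
Fold enrichment (log axis) of the CTCF peaks in 50 merged regions at 10 genes, in the TKO, SKO and WT lists; each point is the strongest peak of a region in 1 pooled list, and a cross at the bottom marks a list without a peak. Crosses stand mostly beside points of low fold, and the points above a fold of 15 have a peak in all 3 lists.

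Ctcf itself (chromosome 8, 105636474 to 105682922) had 2 peaks in TKO, 2 in SKO and 4 in WT. The strongest lay 2.98 kb beyond the upper boundary of the gene, where the non-coding gene Gm33578 is annotated (WT interval 105685645 to 105686122). Its fold was 27.9 in TKO, 22.5 in SKO and 20.0 in WT. The other shared peak lay inside the gene, where Gm5915 is also annotated, at 105661119 to 105661535 in WT. It had folds of 10.6 in TKO, 8.38 in SKO and 8.38 in WT. Fold depends on the local background as well as on the ChIP signal, so the number of ChIP fragments over each summit, the pileup, was also solved from fold and p-value. At the strongest Ctcf peak the pileup was 229 in TKO, 179 in SKO and 241 in WT. Divided by the genome-wide background of its list, the pileup in TKO was 0.917 times that in WT (95% interval 0.762 to 1.10) and that in SKO 0.953 times (0.781 to 1.16). Such intervals are exact binomial, cover counting error only and say nothing about variation between cultures. On the pileup scale this peak therefore differed by less than counting error. The 2 peaks found in WT alone were faint. One, at 105637103 to 105637314, had its summit 659 bases past the tabulated gene start, where Gm5914 is also annotated, a pileup of 13 and a fold of 3.07. The other, at 105678023 to 105678261, had a pileup of 11 and a fold of 3.37.

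Among the ring subunits, Smc3 (chromosome 19, 53600396 to 53645831) was by far the most densely bound, with 6 peaks in TKO, 6 in SKO and 8 in WT. This made 9.17, 9.17 and 12.2 peaks per 100 kb of gene and flanks. Over the windows of all 21883 protein-coding genes the densities were 3.73 in TKO, 3.59 in SKO and 4.17 in WT. The peak at its promoter (WT interval 53599739 to 53600239) had its summit 469 bases before the gene start in WT. Its fold was 36.6 in TKO, 22.4 in SKO and 23.6 in WT, with pileups of 151, 141 and 141. The TKO fold was the highest among all peaks of these genes, yet the TKO pileup over background was 1.03 times that of WT (0.816 to 1.31). The local background was 3.15 in TKO, 5.33 in SKO and 5.02 in WT, so the fold differed mainly in its denominator. In SKO the pileup over background was 1.28 times that of WT (1.01 to 1.63).

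A second strong Smc3 peak lay 3.11 kb beyond the other end of the gene, with pileups of 147 in TKO, 128 in SKO and 153 in WT and folds of 16.1, 15.5 and 16.7. Beside it stood a small peak that the TKO list joins to it as a second summit. That summit had a fold of 4.41 and a pileup of 27 in TKO, and the separate peaks had 4.29 and 19 in SKO and 4.45 and 25 in WT. Between the ends, a cluster of weaker peaks lay in the last part of the gene. The one at 53632015 to 53632357 had a pileup of 11 in TKO and 21 in WT and was missing from SKO. The one at 53636643 to 53636958 was found in WT alone, with a pileup of 12.

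The other ring subunits had few peaks. Rad21 (chromosome 15, 51962604 to 51993538), the subunit that closes the ring, had a single WT peak, 4.69 kb outside the gene at 51998057 to 51998443. It was in all lists, with folds of 11.1 in TKO, 7.77 in SKO and 4.80 in WT. The TKO fold was 2.31 times the WT fold, a ratio above 99.2% of shared peaks in the same WT strength decile. Its pileup was 45 in TKO, 22 in SKO and 33 in WT, and over background the TKO pileup was 1.32 times that of WT (0.822 to 2.13). The order of the lists thus depended on the scale, since SKO exceeded WT in fold and was 0.856 times WT in pileup over background (0.475 to 1.51). TKO also had a weak peak inside the gene (51976562 to 51976800, fold 5.31, pileup 16) that neither SKO nor WT had. Smc1a (X, 152016428 to 152061973) had 1 peak in each list, 8.03 kb outside the gene, with pileups of 16 in TKO, 12 in SKO and 25 in WT. Over background these were 0.618 times WT in TKO (0.308 to 1.20) and 0.616 times in SKO (0.282 to 1.27), so at this depth no difference could be told.

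The alternative subunits Stag1 and Stag2 differed in how much binding they carried. Stag1 (chromosome 9, 100597709 to 100958544) had 8 peaks in TKO, 7 in SKO and 10 in WT over 361 kb. Stag2 (X, 42149297 to 42277186) had 0 in TKO, 0 in SKO and 2 in WT over 128 kb. Both WT peaks at Stag2 were weak. One lay 9.95 kb outside the gene (42139237 to 42139445, fold 4.49, pileup 13) and the other 13.6 kb inside it (42162781 to 42163092, fold 6.17, pileup 16). They belonged to deciles 1 and 2 of the WT list by −log10 q (1 being the weakest). TKO lacked 70.4% of all WT peaks in the first of these deciles and 55.2% in the other, and SKO 76.9% and 62.1%. Of the 3819 protein-coding genes with exactly 2 WT peaks by the same rule, whatever their strength, 41 (1.07%) had 0 in both TKO and SKO. Over chromosome X as a whole, TKO lacked 24.6% of the WT peaks and SKO 24.9%; the part of this in the Stag2 result was not tested.

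At Stag1 the peak next to the tabulated promoter, which lies inside the RefSeq boundaries of the gene, was in every list at similar strength. Its summit lay 187 bases past the tabulated start in TKO, 191 in SKO and 179 in WT. Folds were 21.6 in TKO, 25.3 in SKO and 23.9 in WT, with pileups of 74, 59 and 76. Over background the pileup was 0.940 times WT in TKO (0.673 to 1.31) and 0.996 times in SKO (0.697 to 1.42). A smaller neighbour on the other side of that start (WT interval 100642798 to 100643038) differed more. It had a pileup of 18 in TKO and 34 in WT, and no SKO peak lay over it. The TKO pileup over background was 0.511 times that of WT (0.272 to 0.931). Further inside Stag1, the peak at 100843967 to 100844252 had folds of 13.8 in TKO, 6.65 in SKO and 13.8 in WT. Its SKO pileup over background was 0.642 times that of WT (0.400 to 1.01). Weak WT peaks at 100698725 to 100698980 (pileup 8) and 100836325 to 100836579 (pileup 7) were missing from both knockouts. Scaled by genome-wide background, these WT pileups would be 6.23 and 5.45 in SKO, where a call needed 7 at each. In TKO they would be 8.29 and 7.25, where a call needed 8 at each. Absence at such pileups therefore does not show a loss of signal. The peak at 100851113 to 100851344 was in SKO (pileup 13) and WT (17) and missing from TKO.

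**Figure D2:**
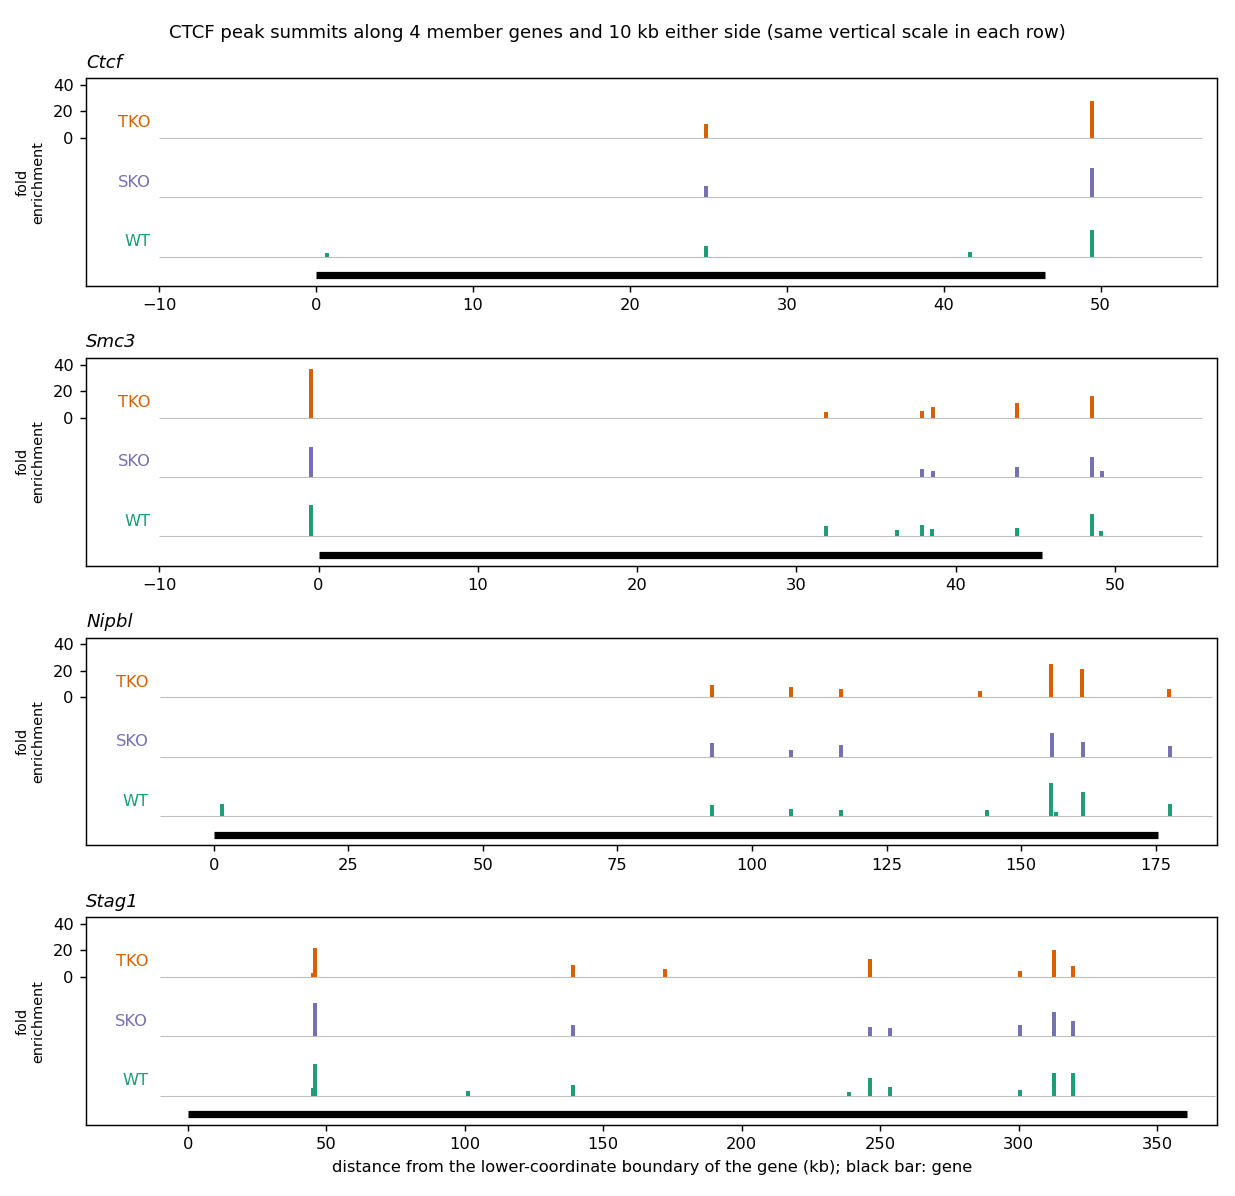
Positions (kb from the lower-coordinate boundary of the gene) and fold enrichment of CTCF peaks at Ctcf, Smc3, Nipbl and Stag1, 1 row per pooled list; each line is the strongest summit of an interval and the black bar is the gene. The tallest lines stand at the same places in TKO, SKO and WT, and the WT line near 0 kb of Nipbl has no counterpart in TKO or SKO.

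The loader gene Nipbl (chromosome 15, 8289824 to 8465315) held the strongest WT peak that either knockout lacked among these genes. This WT peak (8291241 to 8291561) lay inside the gene, 1.59 kb from its lower boundary, with a fold of 9.15 and a pileup of 42 (95% Poisson interval 30.3 to 56.8). It belonged to the fifth decile of the WT list by −log10 q, where TKO lacked 494 of 7108 peaks (6.95%) and SKO 678 (9.54%). With the WT local background scaled to each list, a peak here would have been called from a pileup of 12 in TKO and 10 in SKO. The WT pileup scaled in the same way would be 43.5 in TKO and 32.7 in SKO. Absence from the lists therefore went together with a signal well under the WT level, if the local background was as in WT. That the background was alike was not tested.

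Of the other 8 WT peaks at Nipbl, 2 were missing from both knockouts and 6 were in all lists. The highest in fold (WT interval 8445182 to 8445716), where LOC102634078 is also annotated, had pileups of 73 in TKO, 53 in SKO and 68 in WT. Over background its pileup was 1.04 times WT in TKO (0.735 to 1.46) and 1.00 times in SKO (0.685 to 1.45). The next by fold (8451007 to 8451448) had higher pileups, 93 in TKO, 56 in SKO and 88 in WT, with 0.817 times WT in SKO (0.573 to 1.15). The weak peak at 8406316 to 8406569 ran the other way, with folds of 5.88 in TKO, 8.45 in SKO and 4.36 in WT. Its SKO pileup over background was 2.22 times that of WT (1.00 to 5.16). The peak just outside the gene (8467199 to 8467615) had pileups of 17 in TKO, 18 in SKO and 28 in WT, and over background was 0.586 times WT in TKO (0.301 to 1.11) and 0.825 times in SKO (0.430 to 1.55). The weak WT peaks at 8433358 to 8433564 (pileup 17) and 8446173 to 8446590 (pileup 10) were missing from both knockouts. Scaled as above, the pileup of 17 would be 17.6 in TKO (10 needed) and 13.2 in SKO (9 needed). The pileup of 10 would be 10.4 in TKO (10 needed) and 7.79 in SKO (9 needed). A weak TKO peak (8432142 to 8432415, pileup 12) was missing from SKO and WT.

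Mau2 (chromosome 8, 70014527 to 70042734), the partner of Nipbl, had 5 peaks in TKO, 3 in SKO and 4 in WT, all outside the gene. The strongest lay inside the neighbouring gene Sugp1, with folds of 13.0 in TKO, 7.51 in SKO and 10.2 in WT and pileups of 49, 29 and 47. Over background its pileup was 1.01 times WT in TKO (0.661 to 1.53) and 0.792 times in SKO (0.481 to 1.28), within counting error. On the other side, the WT peak at 70010767 to 70011187 had a pileup of 22 in TKO and 31 in WT and was missing from SKO. It overlaps the pseudogene Gm7730, and whether reads there are shared with a parent gene was not tested. TKO alone had a peak 2.57 kb outside the gene (70045209 to 70045439, fold 3.70, pileup 19).

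The release factor genes Wapl and Pds5a came next. Pds5a (chromosome 5, 65605719 to 65698236) had the same 3 peaks in every list. The strongest, 1.31 kb past the gene start (WT interval 65696684 to 65697219), had pileups of 115 in TKO, 81 in SKO and 91 in WT. Over background this was 1.22 times WT in TKO (0.919 to 1.62) and 1.14 times in SKO (0.836 to 1.56), within counting error. Wapl (chromosome 14, 34672379 to 34747983) had 4 peaks in TKO, 5 in SKO and 5 in WT. The peak that TKO lacked (WT interval 34701045 to 34701351) was weak, with a pileup of 12 in SKO and 11 in WT. The Wapl peak at 34752988 to 34753271 had pileups of 28 in TKO, 26 in SKO and 51 in WT, while its folds were 6.99, 11.4 and 8.27. Over background the pileup was 0.530 times WT in TKO (0.322 to 0.857) and 0.654 times in SKO (0.392 to 1.07). The Wapl peak at 34708485 to 34708802 had pileups of 32 in TKO, 42 in SKO and 32 in WT. Over background its SKO pileup was 1.68 times that of WT (1.04 to 2.76). The folds of this peak were close, 4.73 in TKO, 4.89 in SKO and 4.83 in WT, with local backgrounds of 5.98, 7.79 and 5.84. The higher SKO value thus appeared on the pileup scale only. On chromosome 14 the median log2 ratio of pileup over background at shared peaks was -0.39 for TKO over WT and -0.31 for SKO over WT, against -0.21 and -0.09 in the genome; the part of this in the Wapl values was not tested.

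Counted together, 12 of the 47 WT peaks (25.5%) were missing from TKO, where 19% of all WT peaks were. SKO lacked 13 of the 47 (27.7%), where 21.9% of all WT peaks were missing. Both comparisons use the same WT list: 10 peaks were missing from both knockouts, 2 from TKO alone and 3 from SKO alone. Some of these were too weak to be called even at an unchanged signal, as given above for Stag1 and Nipbl. Gains were few. TKO had 4 of 38 peaks (10.5%) with no WT partner, against 7.49% of all TKO peaks, at Rad21, Stag1, Nipbl and Mau2. SKO had 0 of 34, against 6.59% of all SKO peaks. Between the knockouts, 7 of 38 TKO peaks (18.4%) had no SKO peak, against 14.5% of all, and 2 of 34 SKO peaks (5.88%) had no TKO peak, against 10.4%. With so few peaks, these counts do not set the genes apart from the whole lists. The lists pool their replicates, so no test between genotypes was possible.

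The missing peaks were then counted by strength. In the 3 weakest deciles of the WT list 11 of 21 peaks at these genes were missing from TKO (52.4%, against 54.0% of all such WT peaks) and 9 of 21 from SKO (42.9%, against 60.8%). In deciles 4 and 5, 1 of 13 was missing from TKO (7.69%, against 13.1%) and 4 of 13 from SKO (30.8%, against 17.0%). Single deciles did not follow an even order for SKO, which lacked 0 of 8 peaks in decile 3 (43.4% of all), 3 of 10 in decile 4 (24.6%) and 1 of 3 in decile 5 (9.54%). Among the 13 peaks in the upper 5 deciles, 0 were missing from TKO and 0 from SKO, against 0.357% and 0.512% of all. The 4 missing from SKO in deciles 4 and 5 were those at Nipbl (8291241 to 8291561), Smc3 (53632015 to 53632357), Mau2 (70010767 to 70011187) and Stag1 (100642798 to 100643038). Between the knockouts, the 7 TKO peaks that SKO lacked all lay among the 17 in the 3 weakest deciles of the TKO list (41.2%, against 43.4% of all such peaks).

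Position in a gene was compared as well. Within the bodies of these genes each knockout lacked 11 of the 32 WT peaks (34.4%). Within the bodies of all protein-coding genes 19.3% of WT peaks had no TKO peak and 22.2% had no SKO peak. The 32 peaks are few and were not matched for strength, so these shares do not set the bodies of these genes apart. Of the WT peaks at these genes, 9 of 47 fell in the weakest decile and 3 in the strongest.

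**Figure D3:**
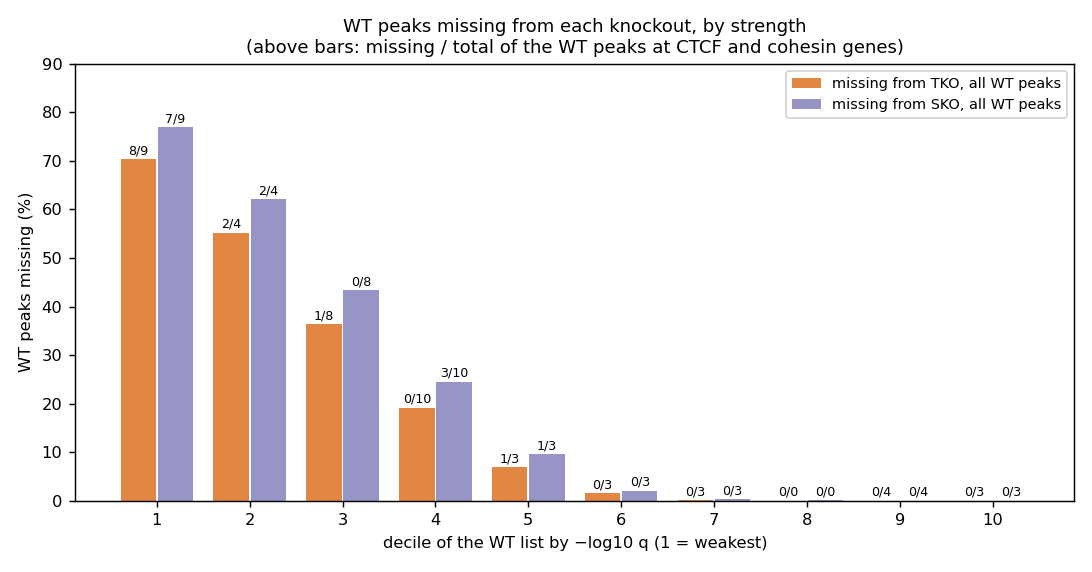
Share of WT peaks (%) missing from TKO (left bar of each pair) and SKO (right bar) in each decile of the WT list by −log10 q; the bars count all WT peaks and the fractions above them count those at the 10 genes. The bars fall from 70.4% for TKO and 76.9% for SKO in the weakest decile to 0.183% and 0.324% in the seventh, and of the peaks at these genes from the sixth decile on, 0 were missing.

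Shared peaks differed in both directions between genotypes, with medians near 0. Log2 fold ratios ran from -1.10 to 1.86 for TKO over WT, from -1.05 to 0.99 for SKO over WT and from -1.31 to 0.92 for SKO over TKO. The 1.86 sets the small Smc3 peak of WT against the strong summit that TKO joins to it, and the next highest was 1.21, at Rad21. Over the 35 WT peaks at these genes with a TKO partner, the median log2 ratio of fold (TKO over WT) was 0.11, against -0.15 over all 57583 shared peaks. On the pileup scale it was -0.05, against -0.21, so its sign depended on the scale while it stood above the genome's median on both. For SKO over WT the medians were -0.08 over 34 peaks by fold, against -0.11 over all, and -0.03 by pileup, against -0.09. For SKO over TKO they were -0.17 over 31 peaks by fold, against 0.05 over all, and 0.02 by pileup, against 0.13.

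Differences of at least 2-fold in fold enrichment were counted next. For TKO over WT 3 of 35 (8.57%) were higher, against 1.16% of all shared peaks, and 1 (2.86%) was lower, against 4.57%, at Stag1 (100917123 to 100917536). The higher ones were at Rad21, at Pds5a (WT interval 65667717 to 65667977) and at the small Smc3 peak that TKO joins to its strong neighbour, where the ratio sets different summits against each other. For SKO over WT 0 of 34 were higher, against 1.94%, and 1 (2.94%) was lower, against 5.01%, at Stag1 (100843967 to 100844252). For SKO over TKO 0 of 31 were higher, against 3.99%, and 3 (9.68%) were lower, against 2.49%: the same Stag1 peak and 2 at Pds5a. On the pileup scale the counting interval lay wholly below 1 at 2 of 35 peaks for TKO over WT, at 0 of 34 for SKO over WT and at 0 of 31 for SKO over TKO. It lay wholly above 1 at 1 for TKO over WT (the joined Smc3 peak), 3 for SKO over WT and 1 for SKO over TKO. The intervals are at the 95% level and uncorrected for their number, and the median of all shared peaks for TKO over WT was itself below 1 on this scale. Such intervals were not counted over all shared peaks, so these counts cannot set the genes apart from the whole lists.

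**Figure D4:**
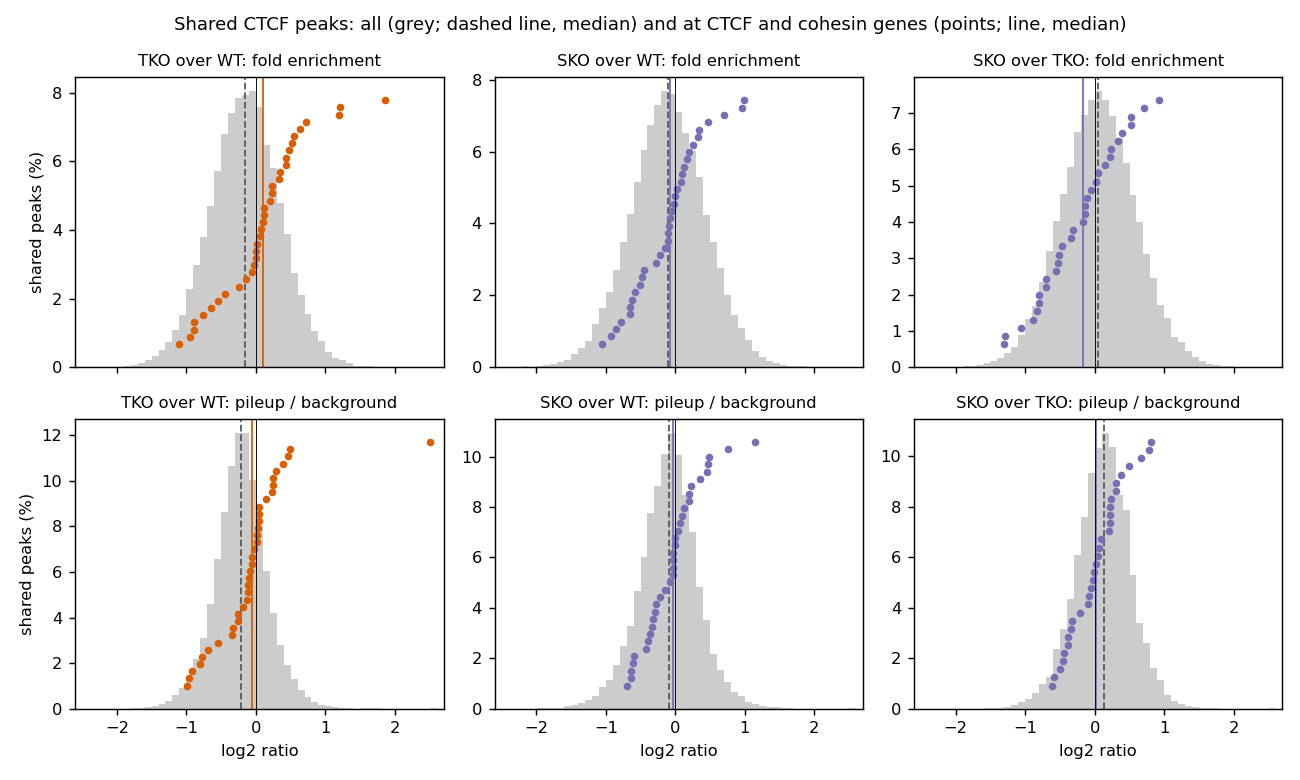
Log2 ratios at shared CTCF peaks for TKO over WT, SKO over WT and SKO over TKO, by fold enrichment (top) and by ChIP pileup over the genome-wide background (bottom); grey bars are all shared peaks (% of peaks, dashed line at the median) and points are the peaks at the 10 genes in ascending order, with their median as a solid line. The points lie within the range of the grey bars, and the point at the far right for TKO over WT is the joined Smc3 peak.

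Genes that work beside CTCF and cohesin were counted for comparison, to be read against the 19% (TKO) and 21.9% (SKO) of all WT peaks that were missing. Of the 31 WT peaks at 11 other cohesin subunits and regulators, with the CTCF paralogue Ctcfl among them, 4 (12.9%) were missing from TKO and 6 (19.4%) from SKO. Ctcfl, a gene known for its activity in the male germ line, had 6 peaks in TKO, 5 in SKO and 6 in WT, with a highest WT fold of 78.5. The meiotic subunit gene Smc1b had 4, 3 and 5, and Hdac8, which encodes the deacetylase of Smc3, had 4 in each list. At the 8 condensin genes TKO lacked 6 of 26 WT peaks (23.1%) and SKO 4 (15.4%). Ncaph2 had 4 peaks in TKO, 6 in SKO and 6 in WT, Ncaph 4, 4 and 5, and Ncapd2 3, 4 and 4.

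At the 7 genes of the SMC5/6 complex, a relative of cohesin that acts in DNA repair, TKO lacked 4 of 23 WT peaks (17.4%) and SKO 5 (21.7%). Nsmce2 had 7 peaks in TKO, 6 in SKO and 7 in WT, Nsmce4a 5, 5 and 6, and Smc5 3, 3 and 5. At 9 genes of other looping factors or CTCF partners TKO lacked 5 of 33 WT peaks (15.2%) and SKO 7 (21.2%). Smchd1, an SMC-like protein of X inactivation, had 2 peaks in TKO, 2 in SKO and 5 in WT, with 3 WT peaks missing from TKO and 4 from SKO. Chd8, a chromatin remodeller, had 6, 5 and 5, and Ldb1, an enhancer-looping adaptor, had 4, 5 and 5.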

How the data were processed

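CTCF ChIP-seq was compared between TKO, SKO and WT mouse embryonic stem cells. Each of the 3 deposited lists holds peaks that the authors called after pooling the replicates of a genotype, per the labels. The submitters' processing notes name Bowtie2 2.3.4, SAMtools 1.9, MACS2 2.1.2, bedtools 2.25.0 and mm10. Their commands are not stated in the labels. Each deposited peak carries the authors' fold enrichment (a ratio), −log10 p and −log10 q. The deposited −log10 q, as the authors' caller gave it, served as the strength score that set the deciles. Read totals were not used here. The genome-wide background solved from the values, 1.82 in TKO, 1.37 in SKO and 1.76 in WT fragments per position, describes relative depth.

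Rows with equal intervals were joined and kept their strongest summit. Peaks overlapping by at least 1 bp were called shared; bedtools 2.31.1 gave the same counts. Whole-number pileups were solved from fold and −log10 p under a Poisson model (relative error under 1e-04), a step tested on simulated data. Fold was taken as the pileup plus 1 over the local background plus 1, so it is not the plain ratio of the 2. Coordinates are 1-based. Gene positions came from RefSeq (GRCm38.p6), without strand or exons. The members and the gene lists were chosen with earlier results of these data known. All 10 members are described, and the 3 genes with most WT peaks in each related list, ties in alphabetical order. All 35 symbols of these lists and all 10 members were matched. Alternatives changed the overlap rule, the −log10 q threshold, the window and the measure of strength.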

Additional observations from a re-analysis of the deposited data

How the results depend on the processing

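The window and the threshold set which peaks were counted, and the numbers changed with them. With 50 kb in place of 10 kb, TKO lacked 21 of 90 WT peaks and gained 9 of 76, SKO lacked 25 of 90 and gained 6 of 70, and SKO against TKO lost 15 of 76 and gained 8 of 70. As shares, the losses were 23.3%, 27.8% and 19.7%, against 18.0%, 21.0% and 14.1% within 50 kb of all protein-coding genes, and the gains 11.8%, 8.57% and 11.4%, against 7.41%, 6.46% and 9.97%. The SKO gains against WT thus stood below the share of all genes with 10 kb and above it with 50 kb. These windows held 76 TKO, 70 SKO and 90 WT peaks; gene bodies alone held 24 TKO and 21 SKO peaks. At a −log10 q of at least 5, TKO lacked 6 of 40 WT peaks (15%, against 14.6% of all), SKO 8 of 40 (20%, against 17.3%), and SKO lacked 4 of 35 TKO peaks (11.4%, against 10.9%). The median log2 ratio for TKO over WT turned to -0.051 by pileup and -0.030 with 50 kb, and that for SKO over TKO turned to 0.024 by pileup and was -0.34 in gene bodies; the cause was not tested. Of 54 alternative values, 36 stayed within 1.5 times (counts) or 0.1 (log2 ratios) of the reported ones. Leaving out a replicate was not possible, since the lists pool them. No paired analysis was possible because each list pools its 3 replicates. Peaks of low pileup limit what absence from a list can show.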

Other observations

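Fold enrichment and pileup gave different pictures at some peaks. At Stag1 (WT interval 100917123 to 100917536) the fold was 7.95 in TKO, 11.5 in SKO and 17.1 in WT, which would place TKO lowest, while the pileups were 47, 41 and 46. The local background there was 5.04 in TKO, 2.66 in SKO and 1.76 in WT, the last being the genome-wide floor of its list. At Pds5a (WT interval 65667717 to 65667977) the fold was 14.2 in TKO, 5.73 in SKO and 6.19 in WT, with the same order but closer values of TKO and WT in pileup (40, 20 and 33) and local backgrounds of 1.89, 2.66 and 4.49. All 3 Pds5a peaks had a lower fold in SKO than in TKO (ratios of 0.404, 0.616 and 0.410), and their pileups over background had ratios of 0.665 (0.368 to 1.16), 0.936 (0.696 to 1.26) and 0.733 (0.372 to 1.40).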
